A study of Mus musculus with 2 samples.

Results

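The genes examined are the nuclear genes of oxidative phosphorylation, taken by symbol as every gene whose name starts with Nduf, Uqcr, Cox4 to Cox8 or Atp5, without names ending in -ps. The rule found 89 of the 32285 genes in both matrices: 36 genes of complex I subunits, 8 of complex I assembly factors, 8 of complex III, 20 of complex IV and 17 of complex V. Ndufa4 and its paralogue Ndufa4l2 are placed with complex IV, where the Ndufa4 protein is now known to sit. Of the 89 genes, 85 had at least 50 unique molecular identifiers (UMIs) over all kept cells of each library and entered the counts below. The other 4 are Cox6a2, Cox7b2, Cox8b and Cox8c, isoforms known from muscle or testis, with 0 to 4 UMIs in a library.

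Oxidative phosphorylation takes place in the inner mitochondrial membrane. Complexes I, III and IV pass electrons from NADH to oxygen and pump protons, and complex V, the ATP synthase, lets the protons back and makes ATP. Most subunits are encoded in the nucleus and a small set by mitochondrial DNA. Several nuclear subunits exist as paralogous isoforms used in different tissues or oxygen conditions. Neural progenitors are known for relying strongly on glycolysis, and neurons for relying on oxidative phosphorylation.

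The cells came from 2 droplet 3' RNA libraries of mouse peripheral retina at embryonic stage E13.5, 1 titled pigmented (strain label Tyrc2j) and 1 titled albino (strain label Swizz ICR), each from 3 pooled embryos. In both, the α-Cre transgene, active in the peripheral retina, had switched on TdTomato, and cells positive for TdTomato had been sorted after papain digestion. Tyrc2j is known as an albino allele of the tyrosinase gene, so that label goes against the title, and the titles are followed here. Pigmentation goes with strain, pool, sex and library, and these cannot be told apart: Xist without a Y-linked UMI was seen in 96.1% of albino cells and 29.3% of pigmented ones. The filters kept 5715 pigmented and 3508 albino cells with medians of 10323 and 11234.5 UMIs. With 1 library per group no test was possible, every interval is an exact 95% interval for counting error only, and the 2 libraries serve as 2 readings of each difference between cell classes. UMIs count 3' ends and are not scaled by gene length, so levels are compared between classes and not between genes.

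Cells were clustered without any of these genes and clusters were named from marker genes. Retinal progenitor (RPC)-like cells numbered 2184 in the pigmented and 1163 in the albino library, and their summed RPC markers (such as Fgf15 and Lhx2) stood at 4771 and 4678 CPM (UMIs per 1000000 UMIs of the class). Ciliary margin zone (CMZ)-like cells, from the rim of the optic cup, numbered 691 and 294, with CMZ markers (such as Wfdc1 and Gja1) at 922 and 824 CPM. Neurogenic-like cells, marked by Atoh7 and ligands of Notch and including clusters led in part by histone or mitosis genes, numbered 824 and 451, with their markers at 13247 and 12879 CPM. RGC-like cells (retinal ganglion cells, the earliest neurons of the retina) numbered 551 and 710, with their markers at 17318 and 18193 CPM. The largest RGC-like cluster differed between the libraries, cluster 3 in the pigmented and cluster 7 in the albino one. Median depth was 9792.5 and 10393 UMIs per cell in RPC-like cells, 14559 and 13956 in CMZ-like, 9850 and 10397 in neurogenic-like, and 14410 and 14575.5 in RGC-like cells.

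Together the 89 genes made up about the same share of RNA in both libraries and a larger share in RGC-like and CMZ-like cells than in RPC-like cells, although the step for RGC-like cells nearly vanished, and that for neurogenic-like cells turned, on a scale without ribosomal protein UMIs (below). Their summed level was 31721 CPM (31650 to 31792) in pigmented and 31855 CPM (31761 to 31949) in albino RPC-like cells. It was 35461 and 35005 CPM in CMZ-like cells, 33545 and 33405 CPM in neurogenic-like cells, and 37411 and 37735 CPM in RGC-like cells. The order of the classes was the same in both libraries, and the step between classes was larger than the gap between libraries at every level. The ratio over RPC-like cells was 1.18 in both libraries for RGC-like cells, 0.16 and 0.14 on the log2 scale for CMZ-like cells, and 1.06 and 1.05 for neurogenic-like cells.

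**Figure D1:**
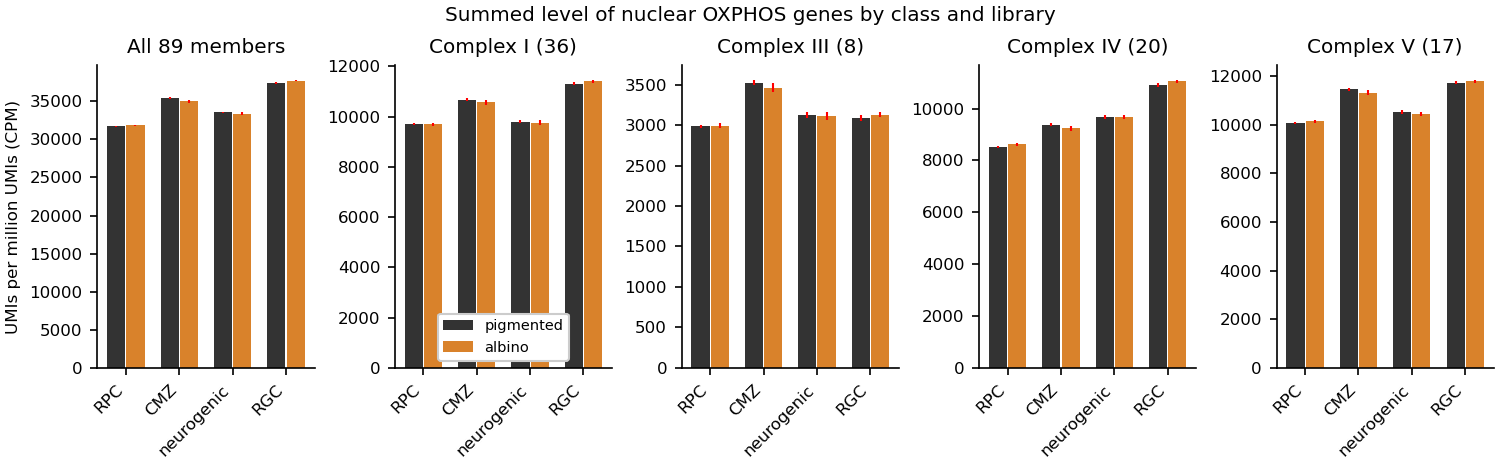
Summed level of the nuclear oxidative phosphorylation genes, and of those of each complex, in CPM (vertical axes from 0) by class (horizontal axes) and library (dark bars pigmented, orange bars albino), with red lines for the 95% counting interval. RGC-like cells are highest for all members and for complexes I, IV and V, and CMZ-like cells for complex III. Without mitochondrial, ribosomal protein and haemoglobin UMIs, CMZ-like cells are highest for all members (50305 and 49814) and for complexes I, III and V, and for complex IV in the pigmented library.

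The size of the step for RGC-like cells depended on what else is counted. Cytosolic ribosomal protein genes took 25.7% and 27.0% of UMIs in RPC-like cells, 27.4% and 27.8% in CMZ-like cells, 20.5% and 20.8% in neurogenic-like cells, and 14.9% and 14.8% in RGC-like cells, where 79 of 82 of these genes were called lower by the rule given below. Per 1000000 UMIs without mitochondrial, ribosomal protein and haemoglobin genes, CMZ-like cells had the largest sum, 50305 and 49814, beside 44765 and 45099 in RGC-like, 43725 and 44518 in RPC-like, and 43088 and 43056 in neurogenic-like cells. On that scale the RGC-like over RPC-like ratio of the sum was 1.02 and 1.01, and the neurogenic-like ratio was 0.985 and 0.967, below 1. The CMZ-like ratio was 1.15 and 1.12. The change of scale moves every log2 ratio over RPC-like cells by the same amount, -0.20 and -0.23 for RGC-like, -0.10 and -0.12 for neurogenic-like, and 0.04 and 0.03 for CMZ-like cells. Differences among the members, and shares of isoforms, do not depend on it.

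A member is called higher or lower in a class below when its CPM differed from that of RPC-like cells by more than 25%, as higher over lower value, in the same direction in both libraries. In RGC-like cells 31 of 85 members were called higher, where 28.3% of all 12914 genes with at least 50 UMIs were, and 11 were called lower, where 39.8% of all genes were. As shares these are 36.5% and 12.9% of the members. The median log2 ratio of the members was 0.23 in the pigmented and 0.25 in the albino library, beside -0.18 and -0.15 over all genes. Without mitochondrial, ribosomal protein and haemoglobin UMIs 16 members were called higher (22.8% of all genes) and 16 lower (48.4% of all genes), with member medians of 0.03 in both libraries beside -0.39 and -0.38 over all genes. The split of higher to lower calls therefore went from 31 and 11 to 16 and 16.

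**Figure D2:**
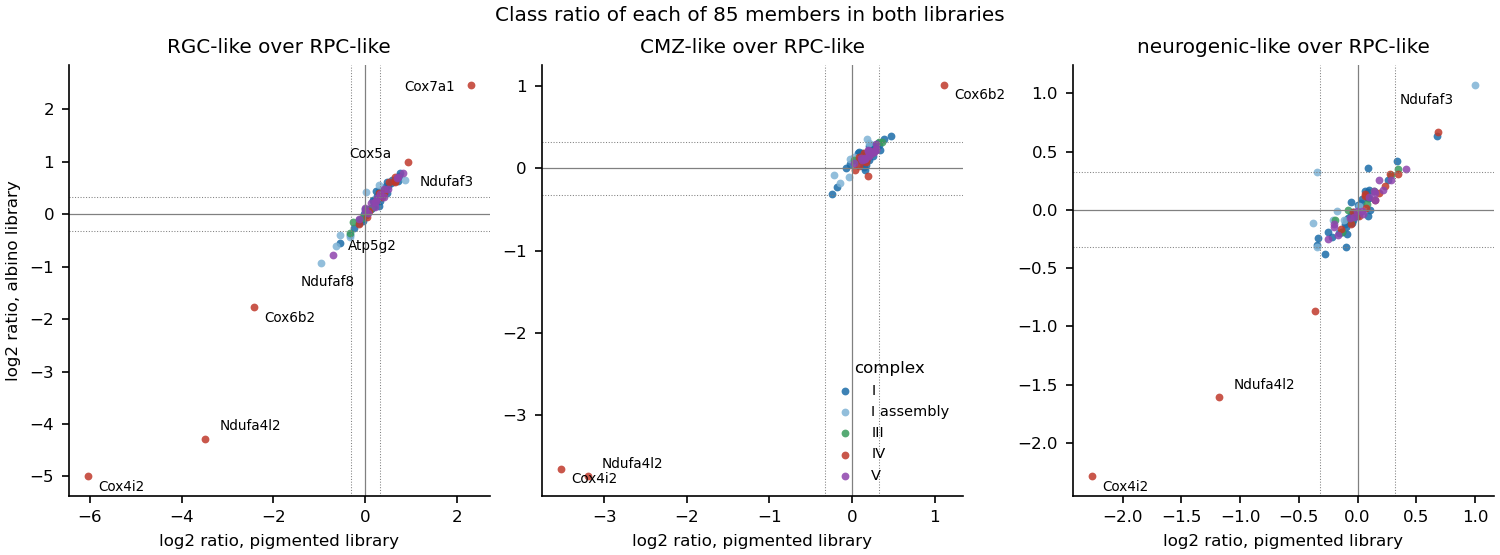
Log2 ratio of each of 85 members over RPC-like cells in the pigmented (horizontal axis) and albino library (vertical axis), for RGC-like, CMZ-like and neurogenic-like cells, coloured by complex, with dotted lines at the 25% threshold. The members lie close to the diagonal, and Cox4i2 and Ndufa4l2 are far below 0 in all 3 classes.

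In complex I, 12 of 36 subunit genes were called higher in RGC-like cells and 2 lower (7 and 5 without ribosomal protein UMIs), and the complex's sum had a log2 ratio of 0.22 and 0.24 (0.02 and 0.01 on that scale). Over all genes 28.3% were called higher and 39.8% lower (22.8% and 48.4% on that scale). Of the core subunits that carry the electron path only Ndufv1, the NADH-binding subunit, was called on the scale of all UMIs (70.1 and 68.9 CPM in RPC-like, 97.1 and 91.7 CPM in RGC-like cells). Without ribosomal protein UMIs that call was lost, and the core subunits Ndufv2 and Ndufs7 were called lower. The accessory subunit Ndufs5 stood at 293 and 307 CPM in RPC-like and 497 and 526 CPM in RGC-like cells, a log2 ratio of 0.76 and 0.78. Ndufa11, a subunit of the membrane arm, had log2 ratios of 0.74 and 0.73, Ndufv3 of 0.71 and 0.64, and Ndufb2 of 0.68 in both libraries. Ndufb8, also of the membrane arm, went from 469 and 479 CPM to 688 and 721 CPM. Ndufs6, Ndufa8, Ndufb4, Ndufb6, Ndufb9 and Ndufb10 were the others called higher, with ratios of 1.32 to 1.57. The 2 called lower were Ndufa12, at 303 and 304 CPM in RPC-like and 206 and 208 CPM in RGC-like cells, and the X-linked Ndufa1, at 529 and 565 CPM and 419 and 427 CPM. Ndufa7 had log2 ratios of -0.14 and -0.17 and Ndufc1 of 0.25 and 0.28, both short of the call on the scale of all UMIs.

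The assembly factors of complex I, which help to build it and are not part of the finished enzyme, had a lower sum in RGC-like than in RPC-like cells on both scales. The ratios were 0.835 and 0.852, and 4 of 8 were called lower and 1 higher, with the same counts without ribosomal protein UMIs. Over all genes 39.8% were called lower and 28.3% higher (48.4% and 22.8% on that scale). The median log2 ratio of the 8 genes was -0.17 and -0.16, near the -0.18 and -0.15 over all genes. Without ribosomal protein UMIs it was -0.37 and -0.38, beside -0.39 and -0.38 over all genes. Ndufaf8 stood at 105 CPM in pigmented and 98.5 CPM in albino RPC-like cells and at 53.6 and 51.9 CPM in RGC-like cells, a log2 ratio of -0.96 and -0.92. Ndufaf2 had log2 ratios of -0.64 and -0.60, Ndufaf7 of -0.56 and -0.40, and Ndufaf1 of -0.34 and -0.43. Ndufaf3 was the single higher call, at 32.6 and 31.5 CPM in RPC-like and 59.4 and 49.6 CPM in RGC-like cells. Ndufaf4 (log2 ratios 0.06 and 0.08), Ndufaf5 (0.01 and 0.42) and Ndufaf6 (0.30 and 0.57) were not called.

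On the scale of all UMIs complex III differed least in its sum, with log2 ratios of 0.05 and 0.06. Without ribosomal protein UMIs these became -0.15 and -0.16, larger in size than those of complexes I and V. Uqcrfs1, the Rieske iron-sulphur subunit, was called higher (log2 ratios 0.40 and 0.46), as was Uqcrq (0.33 and 0.37). Uqcr10 was called lower, from 495 and 516 CPM in RPC-like to 394 and 404 CPM in RGC-like cells. Uqcrh had log2 ratios of -0.07 in both libraries. On the other scale neither higher call was kept.

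Complex IV, cytochrome c oxidase, had the largest sum ratio of the 4 complexes, 1.28 in both libraries, and stayed above RPC-like cells without ribosomal protein UMIs (log2 0.16 and 0.13). Of its 16 measured genes 9 were called higher and 3 lower (5 and 4 on that scale). Shares over all genes were 28.3% higher and 39.8% lower (22.8% and 48.4% on that scale). Cox5a was at 551 and 558 CPM in RPC-like, 590 and 603 CPM in CMZ-like, 667 and 690 CPM in neurogenic-like and 1049 and 1110 CPM in RGC-like cells. RGC-like cells thus had 1.90 (1.85 to 1.96) and 1.99 (1.93 to 2.05) times the RPC-like level. Among other named classes, amacrine or horizontal-like cells held Cox5a at 882 and 981 CPM, above RGC-like cluster 3 (813 and 874 CPM). Surface ectoderm-like cells held 769 and 1057 CPM. Other widely used isoforms called higher were Cox7a2 (log2 ratio 0.64 in both libraries), Cox6b1 (0.65 and 0.62), Cox6a1 (0.63 and 0.71), Ndufa4 (0.52 and 0.61), Cox6c (0.41 in both), Cox5b (0.36 and 0.33) and Cox4i1 (0.33 and 0.35). Cox7c was near 0, at 0.03 and -0.05, and so was Cox8a, at 0.09 and 0.05. The calls for Cox4i1, Cox5b, Cox6c and Ndufa4 were not kept on the scale without ribosomal protein UMIs.

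In complex V 7 of 17 genes were called higher in RGC-like cells and 1 lower (3 and 1 without ribosomal protein UMIs), with a log2 ratio of the sum of 0.22 in both libraries (0.01 and -0.01 on that scale). Of all genes 28.3% were called higher and 39.8% lower (22.8% and 48.4% on that scale). The genes of the catalytic head and central stalk, Atp5a1, Atp5b, Atp5c1, Atp5d and Atp5e, were not called, with log2 ratios of -0.13 to 0.25. Those called higher belong to the peripheral stalk and membrane part. Atp5md stood at 521 and 544 CPM in RPC-like and 923 and 934 CPM in RGC-like cells, and Atp5f1, of the peripheral stalk, at 588 and 585 CPM and 961 and 959 CPM. Atp5o, Atp5j2, Atp5k and Atp5l had log2 ratios of 0.33 to 0.48. The remaining higher call, Atp5g3, and the single lower call, Atp5g2, encode the same protein subunit.

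Subunit c forms the ring that turns in the membrane, and 3 genes, Atp5g1, Atp5g2 and Atp5g3, are known to encode the same mature subunit behind different import sequences. Atp5g2 (chromosome 15, 102662864 to 102672352, minus strand, GRCm38) gave 58.3% and 59.1% of the c subunit UMIs in RPC-like cells, 56.5% and 58.2% in CMZ-like cells, and 58.9% and 60.3% in neurogenic-like cells. In RGC-like cells it gave 38.4% (37.7% to 39.1%) in the pigmented and 37.5% (36.9% to 38.1%) in the albino library. Atp5g3 (chromosome 2, 73908447 to 73911326, minus strand) took 19.5% in RPC-like and 33.3% and 34.0% in RGC-like cells, and Atp5g1 (chromosome 11, 96068852 to 96075670, minus strand) 22.2% and 21.4% in RPC-like and 28.3% and 28.5% in RGC-like cells. By level, Atp5g2 went from 1357 and 1424 CPM in RPC-like to 839 and 836 CPM in RGC-like cells, and Atp5g3 from 454 and 469 CPM to 728 and 759 CPM. The RGC-like clusters ran from 44.4% and 43.8% Atp5g2 in cluster 3, led by Igfbpl1 and Isl1, to 33.0% to 36.4% in clusters 7, 14 and 24. All 4 RGC-like clusters were below every cluster of the other 3 classes, whose lowest value was 55.9%. Shares between paralogues also hold differences in 3' capture and mapping: Atp5g2 has 2 and Atp5g1 has 1 near-identical copy elsewhere in the annotation, and counts of these genes are uncertain to that extent.

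**Figure D3:**
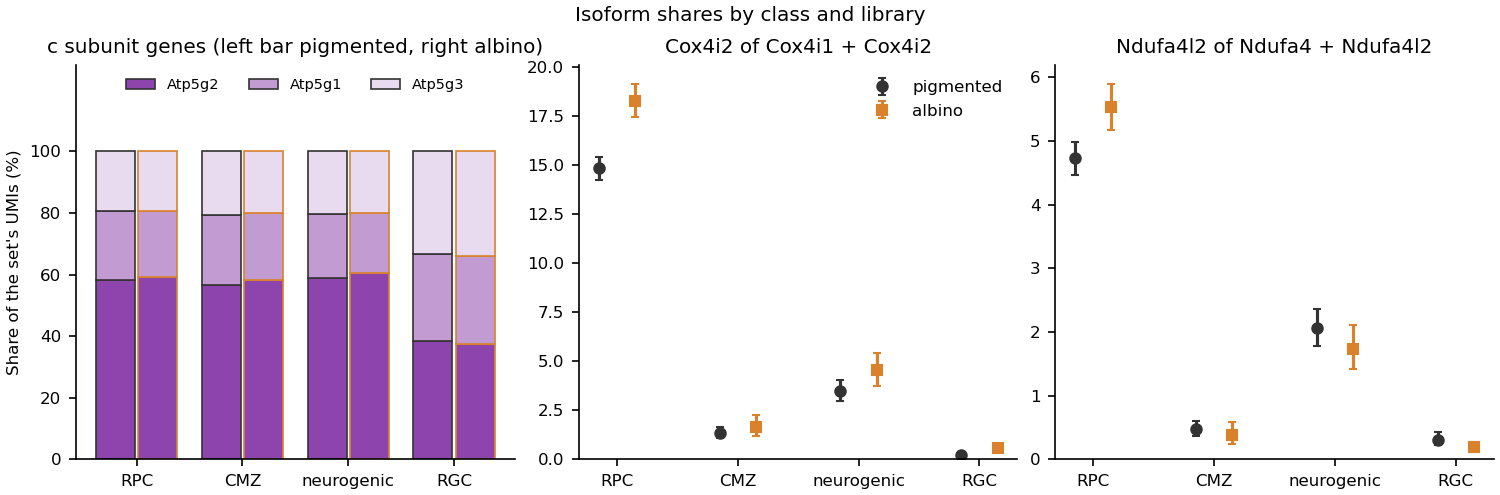
Share of UMIs (vertical axes, percent) of the 3 c subunit genes (left, stacked bars outlined by library), of Cox4i2 among Cox4i1 and Cox4i2 UMIs (middle) and of Ndufa4l2 among Ndufa4 and Ndufa4l2 UMIs (right), by class and library, with 95% Clopper-Pearson intervals in the right 2 panels. Atp5g2 drops from 58.3% and 59.1% in RPC-like to 38.4% and 37.5% in RGC-like cells. Among the classes shown, Cox4i2 and Ndufa4l2 are highest in RPC-like cells.

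The promoters of the c subunit genes are shown because these genes move in opposite directions in RGC-like cells, each as the 150 bases before the RefSeq start site (GRCm38.p6), read 5′ to 3′ on the gene's strand. Capitals mark matches to the motifs searched. Searched were NRF1 (GCGCATGCG), ETS (CCGGAAG), YY1 (AAGATGGC) and SP1 (GGGCGG), each on both strands, and positions count back from the start site.
Atp5g2, chr15:102671048-102671197, minus strand: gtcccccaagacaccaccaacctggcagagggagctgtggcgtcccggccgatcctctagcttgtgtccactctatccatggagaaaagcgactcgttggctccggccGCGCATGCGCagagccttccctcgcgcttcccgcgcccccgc
Atp5g3, chr2:73911327-73911476, minus strand: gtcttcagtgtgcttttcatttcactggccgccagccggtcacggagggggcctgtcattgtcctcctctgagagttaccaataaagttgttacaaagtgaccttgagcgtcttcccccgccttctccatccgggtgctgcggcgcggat
Atp5g1, chr11:96075632-96075781, minus strand: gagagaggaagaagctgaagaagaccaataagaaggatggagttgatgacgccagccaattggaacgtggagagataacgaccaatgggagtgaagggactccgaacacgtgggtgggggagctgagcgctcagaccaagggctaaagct
The Atp5g2 stretch holds an NRF1 match at -42, overlapped by the match on the other strand at -41, and the Atp5g3 and Atp5g1 stretches hold none of the 4 motifs. The Atp5g2 stretch lies inside the gene span given above, so its RefSeq start is not the outermost annotated one. A match is a description of letters and says nothing of binding.

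Motifs were counted in the 250 bases before to 50 after the start of the 73 members found in the RefSeq promoter table, beside all 27025 genes of the table. NRF1, named after a factor known for respiratory chain promoters, was in 10 members (13.7%, beside 1.81% of all genes). ETS was in 16 members (21.9%, beside 9.12%), YY1 in 10 (13.7%, beside 2.88%) and SP1 in 33 (45.2%, beside 35.9%). The cores of hypoxia response sites, searched after values had been seen, were in 17 members for ACGTG (23.3%, beside 19.7%) and 38 for GCGTG (52.1%, beside 32.5%). Cox4i2, Ndufa4l2 and Cox4i1 were not found in the promoter table, so none of these counts includes them. The next 3 promoters are those of 2 members called higher in RGC-like cells, Ndufa11 and Cox5a, and 1 called lower, Ndufaf8, with the same marking.
Ndufa11, chr17:56717612-56717761, plus strand: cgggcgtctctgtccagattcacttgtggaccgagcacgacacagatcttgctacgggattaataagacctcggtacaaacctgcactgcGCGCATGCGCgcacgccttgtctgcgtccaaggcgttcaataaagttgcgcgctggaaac
Cox5a, chr9:57521082-57521231, plus strand: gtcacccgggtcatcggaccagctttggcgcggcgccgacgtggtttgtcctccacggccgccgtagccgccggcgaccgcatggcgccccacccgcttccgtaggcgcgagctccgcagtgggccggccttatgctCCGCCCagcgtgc
Ndufaf8, chr11:120098784-120098933, plus strand: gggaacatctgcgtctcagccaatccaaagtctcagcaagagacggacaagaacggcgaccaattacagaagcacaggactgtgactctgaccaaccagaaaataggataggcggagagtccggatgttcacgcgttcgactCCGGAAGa
Ndufa11 holds NRF1 matches on both strands at -60 and -59, as Atp5g2 does, although the levels of these 2 genes move in opposite directions. Cox5a holds an SP1 match at -13 and Ndufaf8 an ETS match at -8.

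Among all members the widest differences between classes were in isoforms of complex IV. Cox4i2 (chromosome 2, 152754173 to 152765037, plus strand), the paralogue of Cox4i1 known for its use at low oxygen, stood at 89.9 CPM (86.1 to 93.7) in pigmented and 108 CPM (103 to 114) in albino RPC-like cells. It was at 7.79 and 8.64 CPM in CMZ-like, 18.7 and 22.2 CPM in neurogenic-like, and 1.37 and 3.39 CPM (11 and 37 UMIs) in RGC-like cells. As a share of Cox4i UMIs it was 14.8% and 18.3% in RPC-like, 1.35% and 1.65% in CMZ-like, 3.47% and 4.54% in neurogenic-like, and 0.210% and 0.545% in RGC-like cells. RPC-like cells were above the other 3 compared classes in both libraries, with CMZ-like over RPC-like log2 ratios of -3.53 and -3.65. Outside these classes, surface ectoderm-like cells held 66.6 CPM (pigmented) and 126 CPM (albino), the latter above RPC-like cells. These albino cells averaged 39903 UMIs per cell, and the part of doublets among them was not tested. In the clusters, Cox4i2 ranged from 35.7 and 49.3 CPM in RPC-like cluster 9, led by Vax2os and Smoc1, to 118 CPM in pigmented cluster 1, led by histone genes, and 124 CPM in albino cluster 0, led by Ung and Cyp26a1.

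With each cell thinned to 5000 UMIs, 33.0% of pigmented and 37.3% of albino RPC-like cells held a Cox4i2 UMI, against 50.4% and 55.6% unthinned. Thinned shares were 3.54% and 4.23% in CMZ-like, 8.35% in both libraries in neurogenic-like, and 0.557% and 1.17% in RGC-like cells. Mesenchyme-like cells had 6.76% and 6.61% with median depths of 13185 and 12715.5 UMIs. The intervals of the CMZ-like share (2.28% to 5.22% and 2.20% to 7.26%) and of the neurogenic-like share (6.52% to 10.5% and 5.92% to 11.4%) overlap those of mesenchyme-like cells (3.75% to 11.1% and 2.90% to 12.6%). The RPC-like share lies above them, and the RGC-like one below. Whether mesenchyme-like cells express the gene was not tested, so these overlaps do not decide whether CMZ-like and neurogenic-like cells express it. The neurogenic-like intervals lie above those of RGC-like cells (0.115% to 1.62% and 0.508% to 2.30%) in both libraries. The CMZ-like interval does so in the pigmented library only. Thinning left out 107 and 65 RPC-like, 13 and 10 CMZ-like, 34 and 20 neurogenic-like, and 12 and 29 RGC-like cells. Cox4i2 is also known from pericytes, and the 5 pericyte markers summed to 18.4 and 19.0 CPM in RPC-like and 20.6 and 22.0 CPM in CMZ-like cells. They summed to 4.16 and 2.56 CPM in neurogenic-like and 0.373 and 1.01 CPM in RGC-like cells. Notch3 made up most of that sum, and the defining markers Rgs5 and Kcnj8 had at most 1 UMI in any of the 4 classes of a library. The part of pericytes in the Cox4i2 values was not tested.

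Ndufa4l2 (chromosome 10, 127514967 to 127517154, plus strand), the paralogue of Ndufa4 that is known as a target of hypoxia signalling, had a similar order. It stood at 51.5 and 60.6 CPM in RPC-like, 5.59 and 4.53 CPM in CMZ-like, 22.8 and 19.9 CPM in neurogenic-like, and 4.61 and 3.12 CPM in RGC-like cells. Its share of the Ndufa4 and Ndufa4l2 UMIs was 4.73% and 5.53% in RPC-like and 0.308% and 0.197% in RGC-like cells. Its exons overlap those of Shmt2 on the other strand. Outside the 4 compared classes, surface ectoderm-like cells held Ndufa4l2 at 36.3 CPM (pigmented) and 75.8 CPM (albino), the latter above RPC-like cells.

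Cox6b2 (chromosome 7, 4751792 to 4753094, minus strand), an isoform known from testis, was highest in CMZ-like cells among the 4 compared classes. It stood at 44.4 and 39.3 CPM there, at 20.6 and 19.5 CPM in RPC-like, 19.9 and 17.9 CPM in neurogenic-like, and 3.86 and 5.69 CPM in RGC-like cells, while RPE-like cells (30 and 15 cells, retinal pigment epithelium) held 63.6 and 41.4 CPM. The CMZ-like over RPC-like log2 ratio was 1.11 and 1.01, and the RGC-like one -2.42 and -1.78. Its share of Cox6b UMIs was 6.02% and 5.53% in CMZ-like and 3.24% and 2.97% in RPC-like cells. Neurogenic-like cluster 19, with the photoreceptor marker Otx2 among its leading genes, held 33.3 and 35.7 CPM, close to the CMZ-like clusters (31.5 to 46.5 CPM). Mesenchyme-like cells, set beside the Cox4i2 shares above, do not enter the ranking for Cox6b2. That ranking therefore does not place CMZ-like cells above mesenchyme-like ones. With RPE-like cells higher, Cox6b2 is not read as particular to CMZ-like cells.

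Cox7a1 (chromosome 7, 30184144 to 30186078, plus strand), an isoform known from heart and skeletal muscle, was highest in RGC-like cells among the 4 compared classes. Levels were 14.6 and 17.9 CPM (117 and 195 UMIs) there, against 2.98 and 3.23 CPM in RPC-like, 3.39 and 3.02 CPM in CMZ-like, and 2.31 and 1.77 CPM in neurogenic-like cells. The RGC-like over RPC-like ratio was 4.89 (3.61 to 6.67) in the pigmented and 5.53 (3.98 to 7.83) in the albino library. Classes outside these 4, such as amacrine or horizontal-like and RPE-like cells, do not enter that ranking. It therefore does not place RGC-like cells above those classes, and Cox7a1 is not read as particular to RGC-like cells. In albino RGC-like cells it was 1.51% of the Cox7a UMIs, beside 81.5% for Cox7a2, and its pigmented share was lower. Cox7a2l, the supercomplex factor of this family, stayed within the threshold on the scale of all UMIs, at 233 and 228 CPM in RPC-like and 211 and 201 CPM in RGC-like cells. Of the muscle and testis isoforms Cox6a2, Cox7b2, Cox8b and Cox8c, the 4 classes held 1 Cox7b2 UMI and 1 Cox8c UMI in all.

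**Figure D4:**
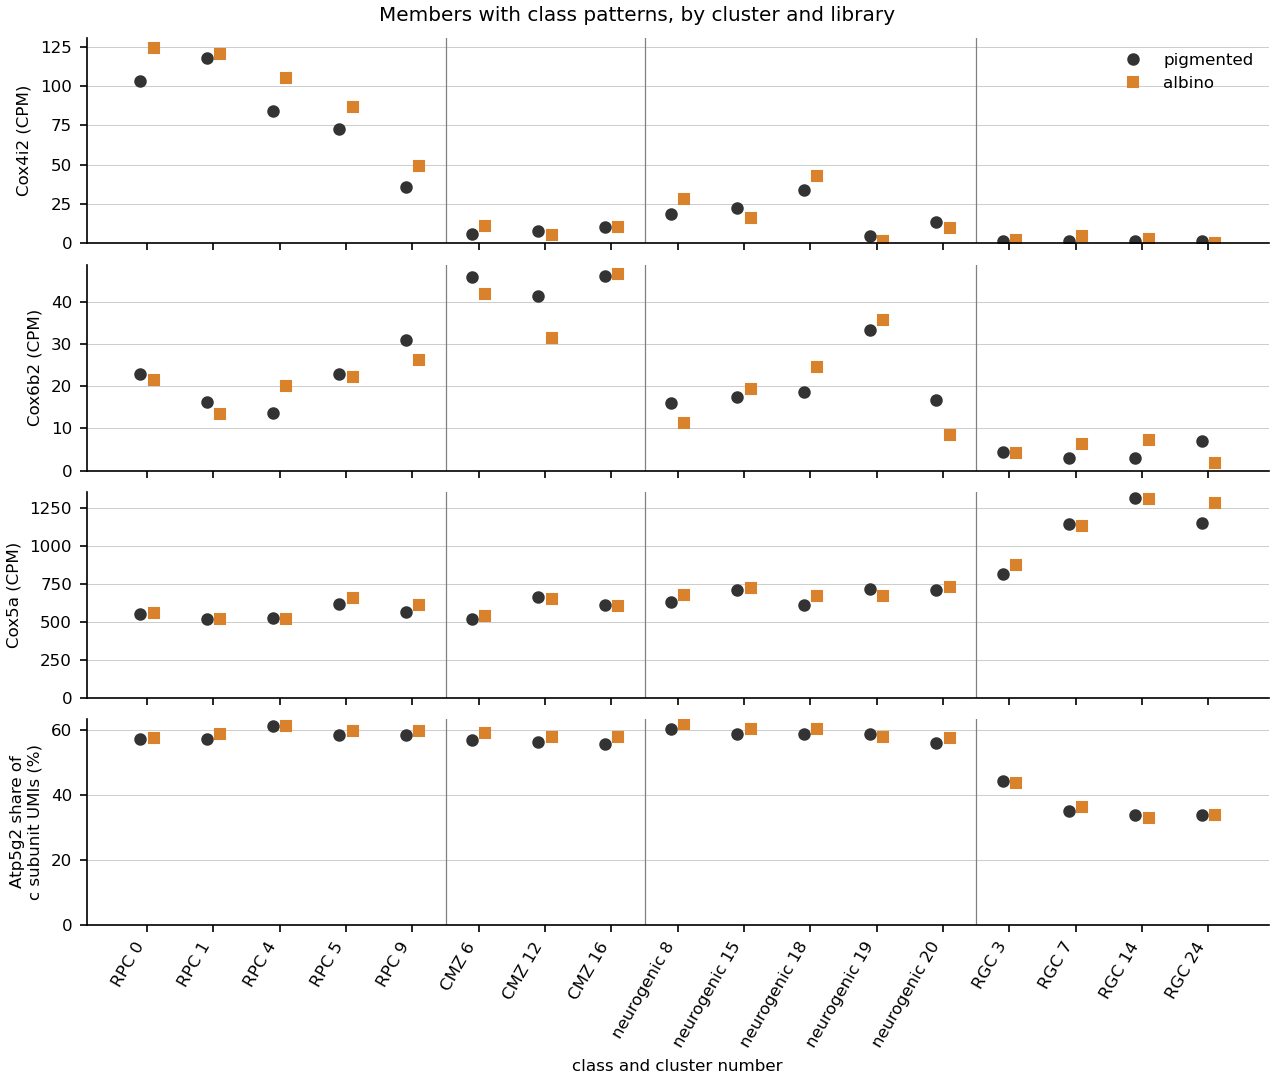
Levels of Cox4i2, Cox6b2 and Cox5a (CPM) and the Atp5g2 share of c subunit UMIs (percent) in each cluster of the 4 classes (horizontal axis), with circles for the pigmented and squares for the albino library. Cox4i2 is high in RPC-like clusters, Cox6b2 in CMZ-like clusters and neurogenic-like cluster 19, and the RGC-like clusters have the highest Cox5a and the lowest Atp5g2 share.

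CMZ-like cells differed from RPC-like cells in few members. Of 85 members 5 were called higher, where 8.63% of all genes were, and 2 lower, where 14.3% of all genes were. With a minimum of 500 UMIs the higher calls were 5 of 83 members and 381 of 7859 genes. Without mitochondrial, ribosomal protein and haemoglobin UMIs the counts were 6 (9.51% of all genes) and 2 (13.1% of all genes). Beside Cox6b2 these were Ndufa11 at 227 and 233 CPM in RPC-like and 314 and 304 CPM in CMZ-like cells, Ndufb4 (log2 ratios 0.38 and 0.35), Uqcr11 (0.36 and 0.32) and Uqcrq (0.33 and 0.32). Cox4i2 and Ndufa4l2 were the 2 called lower. Small differences in the same direction were common: 72 members were above 0 and 7 below 0 in both libraries, with median log2 ratios of 0.16 and 0.15 beside -0.07 and -0.04 over all genes. How many of all genes were above or below 0 in both libraries was not counted. Atp5b (0.29 in both libraries) and Ndufb2 (0.33 and 0.28) were among the next highest. On the low side the X-linked Ndufa1 had -0.24 and -0.31, Ndufv3 -0.18 and -0.23, Ndufaf7 -0.14 and -0.18, Ndufaf4 -0.22 and -0.09, and Ndufaf2 -0.04 and -0.10, and no other member was below 0 in both libraries. Complex III had the largest sum ratio in CMZ-like cells, 1.18 and 1.16. The calls for Ndufa11, Ndufb4, Uqcrq and Uqcr11 sit near the threshold, that for Uqcrq was lost in 8 of the alternatives tried, and with coarser clusters (404 and 148 CMZ-like cells) 11 members were called higher.

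In neurogenic-like cells 6 members were called higher than in RPC-like cells, where 16.2% of all genes were, and 3 lower, where 27.9% of all genes were. Without mitochondrial, ribosomal protein and haemoglobin UMIs 3 were higher (12.6% of all genes) and 8 lower (34.3% of all genes). Member medians were -0.03 and -0.02, beside -0.11 and -0.10 over all genes. Ndufaf3, a complex I assembly factor, had the largest ratio, at 65.0 and 66.3 CPM against 32.6 and 31.5 CPM in RPC-like cells. Its exons overlap those of Impdh2 on the other strand, and cluster 19 had its highest level, 115 and 103 CPM. Cox7a2 reached 971 and 987 CPM from 604 and 623 CPM, and Ndufs5 469 and 475 CPM from 293 and 307 CPM. These 3 genes stood near or above their RGC-like level already in neurogenic-like cells: Cox7a2 was at 940 and 967 CPM and Ndufs5 at 497 and 526 CPM in RGC-like cells. Cox5a, Atp5f1 and Ndufb8, by contrast, had most of their step between neurogenic-like and RGC-like cells, with Ndufb8 at 459 and 469 CPM in neurogenic-like cells. Atp5md (0.42 and 0.35), Uqcrfs1 (0.34 and 0.35) and Ndufc1 (0.33 and 0.42) were called higher near the threshold, and their calls were lost on the scale without ribosomal protein UMIs. Cox7c had 0.34 and 0.31. Cox4i2 and Ndufa4l2 were called lower, and so was Cox7a1 on 20 and 9 UMIs. Ndufaf8 (-0.34 and -0.32), Ndufs7 (-0.34 and -0.30), Ndufv3 (-0.28 and -0.38), Atp5d (-0.25 in both libraries) and Ndufs8 (-0.33 and -0.24) were the next lowest.

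Other genes of the pathway differed among themselves in RGC-like cells, where counts called on the scale of all UMIs stand beside 28.3% higher and 39.8% lower over all genes. RGC-like counts without ribosomal protein UMIs stand beside 22.8% higher and 48.4% lower over all genes. None of the 13 mitochondrially encoded subunit genes was called in RGC-like cells (sum ratios 0.897 and 1.02), and 6 of 13 were called higher in CMZ-like cells (1.21 and 1.34), where 8.63% of all genes were. Without ribosomal protein UMIs 1 was lower in RGC-like and 9 were higher in CMZ-like cells, where 9.51% of all genes were. The electron carrier cytochrome c, Cycs, stood at 260 and 264 CPM in RPC-like, 498 and 494 CPM in neurogenic-like, and 467 and 489 CPM in RGC-like cells, and Cyc1 of complex III was also called higher in RGC-like cells. The inhibitor of ATP synthase, Atpif1, went from 816 and 840 CPM in RPC-like to 1881 and 1943 CPM in RGC-like cells. Of 8 metabolite carriers 7 were called higher in RGC-like cells (4 without ribosomal protein UMIs) and none lower, among them the ADP/ATP carrier Slc25a4 at 631 and 617 CPM in RPC-like and 1160 and 1172 CPM in RGC-like cells. Of 18 genes of the citric acid cycle and pyruvate entry 8 were called higher and 2 lower (3 and 4 without ribosomal protein UMIs), with Mpc1, a pyruvate carrier subunit, going from 64.7 and 65.7 CPM to 216 CPM in both libraries.

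Regulators of mitochondrial biogenesis were lower in RGC-like cells in 9 of 14 measured genes and higher in none (10 and none without ribosomal protein UMIs). Over all genes 39.8% were called lower and 28.3% higher (48.4% and 22.8% on that scale). These shares stand beside every RGC-like count of this paragraph. Tfam, which packages mitochondrial DNA and takes part in its transcription, stood at 86.1 and 83.8 CPM in RPC-like and 37.1 and 35.0 CPM in RGC-like cells. The mitochondrial ribosome had 24 of 78 genes called lower and 7 higher, beside 39.8% and 28.3% of all genes. On the other scale 44 were lower and 2 higher, beside 48.4% and 22.8% of all genes. Of 19 glycolysis genes 5 were called higher and 6 lower in RGC-like cells (5 and 8 on the other scale), while 10 were lower in CMZ-like cells (14.3% of all genes) and 11 in neurogenic-like cells (27.9% of all genes) and none higher. On the other scale 8 were lower and 1 higher in CMZ-like cells (13.1% and 9.51% of all genes), and 13 lower in neurogenic-like cells (34.3% of all genes). The glucose transporter Slc2a1 stood at 226 and 204 CPM in RPC-like, 117 and 107 CPM in CMZ-like, 172 and 147 CPM in neurogenic-like, and 20.3 and 20.5 CPM in RGC-like cells, the same class order as Cox4i2. Ldha stood at 818 and 882 CPM in RPC-like and 419 and 449 CPM in CMZ-like cells. Complex II had 1 gene called higher and 2 lower of 4 on both scales. The 36 assembly factors outside the symbol rule had 7 higher and 6 lower (2 and 11 on the other scale), and the 21 import and cristae genes 4 and 7 (2 and 9).

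Between the 2 libraries the members were close within each class. The albino over pigmented ratio of the sum was 1.004 in RPC-like, 0.987 (0.981 to 0.993) in CMZ-like, 0.996 in neurogenic-like and 1.009 in RGC-like cells, and 1.05 over all kept cells, whose class mix differs. Past 25% either way was 1 of 85 members in RPC-like cells (13.9% of all genes), 0 in CMZ-like cells (25.6%), 1 in neurogenic-like cells (25.6%) and 3 in RGC-like cells (23.3%). The shares over all genes include many genes with fewer UMIs than the members. The gene in RPC-like cells was Ndufaf5, an assembly factor, at 11.2 and 8.63 CPM (266 and 120 UMIs), with a ratio of 0.773 (0.618 to 0.963). In neurogenic-like cells it was Cox7a1, at 20 and 9 UMIs (0.766, 0.307 to 1.76). In RGC-like cells the 3 were Cox4i2 (2.48, 1.24 to 5.39), Cox6b2 (1.47, 0.943 to 2.35) and Ndufa4l2 (0.677, 0.412 to 1.11), each on 11 to 62 UMIs per library.

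**Figure D5:**
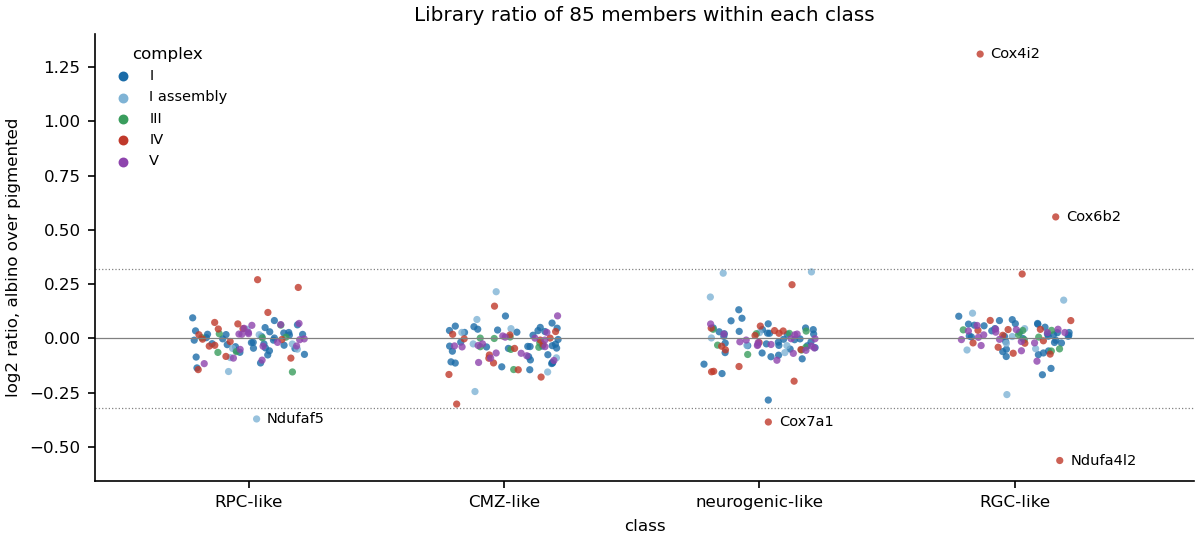
Log2 ratio of albino over pigmented (vertical axis) of 85 members within each class (horizontal axis, points spread sideways at random), coloured by complex, with dotted lines at the 25% threshold. The points gather around 0 in all 4 classes, and the 5 named members beyond the dotted lines have at most 266 UMIs in a library.

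With deeper counts the intervals were narrow enough to show small library differences that stayed within 25%. The members below were ranked by the interval limit nearer to 1 and not by the ratio, so members with wider intervals can have ratios farther from 1. In RPC-like cells Cox4i2 was 1.21 times (1.13 to 1.29) and Ndufa4l2 1.18 times (1.08 to 1.29) as high in the albino library, followed by Ndufa1 (1.07) and Cox8a (1.05). At the low end by that rank were Cox7b (0.905, 0.873 to 0.939), Uqcrc2 (0.899) and Atp5b (0.923). In CMZ-like cells Atp5g2 and Ndufb8 were each at 1.07, Ndufa7 and Ndufc1 each at 1.04 with intervals that include 1, and Cox4i1 (0.905), Ndufa13 (0.927), Atp5b (0.926) and Atp5j (0.939) were at the low end. Neurogenic-like cells had Atp5g2 (1.05), Ndufa4 (1.04), Ndufa1 (1.06) and Ndufc1 (1.05) at the high end, and Ndufa10 (0.822, 0.743 to 0.908), Cox4i1 (0.899), Cox7b (0.914) and Ndufa6 (0.894) at the low end. In RGC-like cells Ndufa4, Cox5a, Ndufa5 and Ndufs5 were at 1.06 to 1.07, and Ndufaf3 (0.836), Ndufa6 (0.891), Atp5b (0.930) and Ndufa10 (0.909) were at the low end. The X-linked members did not share a direction, with Ndufa1 above 1, Cox7b below 1 and Ndufb11 at 0.995, 0.976 and 0.985 in RPC-like, CMZ-like and neurogenic-like cells. The difference in sex between the pools stands beside these values, and its part in them was not tested.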

How the data were processed

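Red-sorted peripheral retina cells of 2 libraries were measured, 1 per group. The deposited values are raw UMI counts per gene and cell, made with Cell Ranger on mm10 (version 2.1.1 per the submitters' processing notes, 5.0.1 per the file headers). The count matrices were used as deposited, and the labels name the v2 3' kit. The libraries held 69965728 and 46271969 UMIs in 6089 and 3676 barcodes, and 8 barcodes were in both.

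Barcodes with under 500 genes (134 pigmented, 110 albino) or over 10% mitochondrial UMIs (188 and 136) were removed. Scrublet on all barcodes marked 168 pigmented and 4 albino barcodes. A mark on 0.109% of albino barcodes means that it did not work there, so albino doublets were probably not removed. Cells were clustered with Scanpy 1.11.5 (2000 variable genes, 30 components, 15 neighbours, Leiden resolution 1.0) without the members, the pathway lists, and mitochondrial, ribosomal protein and haemoglobin genes (397 genes left out). A cluster took the name of the marker list with the highest mean log2 level over other clusters (pseudocount 10 CPM) where it led by 0.3, 3 markers were detected and no other list had more of the 10 leading genes, which gave names to 25 of 30. Left without a name were 691 pigmented and 372 albino cells, most of them in cluster 2 (383 and 222), led by Sp8 and Pou4f2.

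Clustering was made 3 times. The first used a name pattern that also removed Rps6k kinases. The second, made after results of the first had been read and because few albino doublets were marked, fixed this and ran Scrublet on filtered barcodes. The reported one fixed the pattern and went back to all barcodes, and the others are alternatives added after seeing the data. The members and lists were chosen with earlier results of these data known.

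UMIs were summed per class and library, and intervals are exact (Poisson, conditional binomial, Clopper-Pearson). The ratio code was tested on simulated data. Named are, by rule, the 3 members with the highest CPM in each complex and among the assembly factors, the 8 highest and 8 lowest class ratios (ranked by the smaller of the 2 libraries' log2 ratios), the 4 highest and 4 lowest library ratios, the isoform sets and the X-linked members. A gene that this rule names is not reported here. Other genes called in RGC-like cells, the promoters printed and the added hypoxia motifs were chosen after values were seen. Exons of 29 members overlap a gene on the other strand, and 21 members have a near-identical copy (97% over at least 100 of their last 400 bases), so their counts are uncertain. Promoters are from RefSeq (GRCm38.p6) and positions of genes from the GENCODE annotation of GRCm38.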

Additional observations from a re-analysis of the deposited data

Results flagged for a closer look

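Ndufaf5, a complex I assembly factor, went opposite ways in the 2 libraries in neurogenic-like over RPC-like cells. Its log2 ratio was -0.35 in the pigmented and 0.33 in the albino library, a difference of 0.67, on 76 and 55 UMIs in neurogenic-like cells. The difference was not tested, since each library is 1 sample.

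Ndufb1-ps, a complex I gene that its -ps name keeps outside the symbol rule, held 28417 UMIs in the pigmented and 20916 in the albino library. Its level was 352 and 365 CPM in RPC-like, 438 and 427 CPM in CMZ-like, 486 and 509 CPM in neurogenic-like, and 476 and 488 CPM in RGC-like cells.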

How the results depend on the processing

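No paired analysis was possible because each group is 1 library. Of 449 alternative values for 25 main results 358 kept their direction and stayed within tolerance, and of 1322 for 80 named genes 1262 did, 32 lost and 24 gained a call. For ratios of sums the tolerance is the 25% threshold, set in place of a planned spread between libraries when the comparison was written, so the RGC-like over RPC-like sum counts as kept although it went from 0.24 to 0.03 (log2) without mitochondrial, ribosomal protein and haemoglobin UMIs. On that scale the neurogenic-like sum turned from 0.07 to -0.0347, mean levels were 44122, 50059, 43072 and 44932 in RPC-like, CMZ-like, neurogenic-like and RGC-like cells, 16 members were higher in RGC-like cells, and 3 were higher and 8 lower in neurogenic-like cells. The neurogenic albino over pigmented sum (-0.00604) turned to 0.0105 with 1000 genes per cell, 0.00182 with at most 5% mitochondrial UMIs, 0.0118 without that limit, 0.0149 at resolution 0.5, 0.00254 with marker scores per cell, 0.00014 with Scrublet on filtered barcodes (added) and 0.00171 without overlapping members. Ndufc1 turned to -0.0531 in CMZ-like cells (albino over pigmented) at resolution 0.5, Ndufaf2 to 0.0212 (CMZ-like over RPC-like) with marker scores, and Ndufb8 to -0.077 and Ndufa7 to -0.00724 (albino over pigmented, CMZ-like) in cells with Xist and no Y-linked UMI. The cause was not tested. Mean levels in RPC-like cells moved from 31788 to 32264 at resolution 0.5, 31678 at 2.0, 31219 with a naming margin of 0.5, 31956 with marker scores, 31641 without cell cycle genes, 31527 with Scrublet on filtered barcodes, 31072 with equal weight per cell, 31077 for subunits only and 22606 without overlapping members. In CMZ-like cells they moved from 35233 to 35814 with at most 5% mitochondrial UMIs, 36727 at resolution 0.5, 34904 with Scrublet on filtered barcodes, 34572 for subunits and 24915 without overlapping members. In neurogenic-like cells they moved from 33475 to 33790 with 1000 genes, 34043 without a mitochondrial limit, 33931 at resolution 0.5, 34213 with marker scores, 33668 in Xist-only cells, 33308 with Scrublet on filtered barcodes, 32824 for subunits and 23657 without overlapping members. In RGC-like cells they moved from 37573 to 37149 with equal weight, 37005 for subunits and 25821 without overlapping members. Higher calls in RGC-like cells (31) were 19 without overlapping members and 14 at 1.5-fold, and lower calls (11) 6 for subunits and 6 at 1.5-fold. Higher calls in CMZ-like cells (5) were 3 without a mitochondrial limit, with marker scores and in Xist-only cells, 11 at resolution 0.5, 2 with Scrublet on filtered barcodes, 1 at 1.5-fold and 37 at 1.1-fold, and lower calls (2) were 1 for subunits, 1 without overlapping members and 5 at 1.1-fold. In neurogenic-like cells higher calls (6) were 3 at 1.5-fold and 18 at 1.1-fold, and lower calls (3) were 5 at resolution 0.5 and 14 at 1.1-fold. Library calls in RPC-like cells (1) were 0 with 1000 genes, a margin of 0.5, equal weight, subunits, 500 UMIs or 1.5-fold, and 6 at 1.1-fold. In CMZ-like cells (0) they were 1 with at most 5% mitochondrial UMIs, with no doublets removed and at resolution 0.5 or 2.0, 2 with 1000 genes, without a mitochondrial limit, with marker scores, in Xist-only cells or with equal weight, 3 with Scrublet on filtered barcodes and 10 at 1.1-fold. In neurogenic-like cells (1) they were 0 with 1000 genes, without a mitochondrial limit, at resolution 0.5 or 2.0, with 500 UMIs or 1.5-fold, 2 with Scrublet on filtered barcodes and 10 at 1.1-fold, and in RGC-like cells (3) 1 at 1.5-fold and 8 at 1.1-fold. The Atp5g2 share in RGC-like cells (37.9%) was 38.8% with 1000 genes and 39.9% with no doublets removed or marker scores, and the Cox4i2 share in CMZ-like cells (1.35% and 1.65% in the libraries) 1.20% at resolution 0.5 and 2.12% with marker scores. Clustering with the Rps6k kinases left out gave the reported values. Counting intervals do not cover the spread between animals, which 1 library per group cannot show.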

Other observations

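Among the other named classes, the summed level of the 89 genes was highest in surface ectoderm-like cells, at 43315 CPM (22 cells) in the pigmented and 50408 CPM (83 cells) in the albino library, and in RPE-like cells (retinal pigment epithelium), at 41182 CPM (30 cells) and 42805 CPM (15 cells). The surface ectoderm-like cells averaged 15017 UMIs per cell in the pigmented and 39903 in the albino library. Mitochondrial UMIs made up 0.926% and 0.188% there. The part of doublets in their values was not tested. Mesenchyme-like cells had 36926 and 37188 CPM, photoreceptor-like cells 35608 and 35964 CPM, and amacrine or horizontal-like cells 32417 and 32714 CPM. The Atp5g2 share of c subunit UMIs in these other named classes ran from 47.0% in pigmented mesenchyme-like cells to 55.2% in albino amacrine or horizontal-like cells, above all 4 RGC-like clusters. Unnamed cluster 2, led by Sp8 and Pou4f2, had 53.2% and 56.0%, and the small unnamed cluster 28, led by Gng8 and Tesc, had 27.9% (8 cells) and 26.7% (11 cells).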
